A study of Arabidopsis thaliana with 48 samples.

Results

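Transcript levels in droughted plants were compared between aba1-6, an Arabidopsis thaliana line mutant in the abscisic acid (ABA) synthesis gene ABA1, and wild type. The comparison takes 16 of the 48 libraries of the series, chosen by genotype and treatment in their titles: 8 of aba1-6 and 8 of wild type, with 2 of each genotype at each of 4 times of harvest. The series sequenced polyadenylated RNA from the aerial parts of 3-week-old plants, in 3 genotypes with normal watering or drought, and its title concerns GIGANTEA and responses to ABA. The other genotype, gi-2, enters here only in an alternative fit of all 48 libraries. In 1 gi-2 drought library (ZT16 replicate 2) the title and the genotype label disagree, the label reading wild type. Here the title was followed, so that library is not among the 16.

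Wild type was ecotype Columbia, and the labels give the same ecotype for aba1-6, which is a single mutant line. Drought was a soil held at 30% relative water content by daily weighing and watering of pots, from soon after germination until harvest. Normal watering, used below for 1 further comparison, was 80 to 90%. The daily light period was 8 h. Harvests at zeitgeber time (ZT, hours after lights on) 1 and 8 fell in the last short day, and those at ZT12 and ZT16 in an extension of the light. About 50 seedlings, taken from 3 pots, went into every library, and the 2 libraries per group are labelled as biological replicates. The p-values measure the spread between such pools. Where time of harvest enters as a block, that spread also holds any variation of the genotype effect over the times.

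ABA is made from carotenoids: zeaxanthin epoxidase (ABA1) supplies the epoxy-xanthophylls that 9-cis-epoxycarotenoid dioxygenases (NCED) cleave, and CYP707A hydroxylases break ABA down. ABA is sensed by PYR/PYL receptors, which then inhibit clade A protein phosphatases of type 2C (PP2C). This frees SnRK2 kinases to activate ABF transcription factors, which bind ABA-responsive elements with the core ACGTG. In leaves the hormone is known for closing stomata under water deficit and for inducing protective proteins.

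Levels are in CPM (a gene's share of a TMM-scaled library of 1000000 counts) and are given as the lowest, median and highest of the 8 libraries of a genotype. CPM are not corrected for gene length, so they compare libraries and not genes. Differences are log2 fold changes of aba1-6 against wild type with time of harvest as a block, ± their standard error, and a gene was called where the adjusted p of edgeR's quasi-likelihood test lay under 0.05. In bulk tissue, fewer cells of a type and less RNA per cell cannot be told apart.

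Total counts ranged from 2289812 to 26925706 over the 16 libraries, and 18652 of the 26988 genes in the table passed the filter on low counts. Samples separated first by the hour of harvest, which accounted for 99.1% of the first principal component (42.0% of all variance), while genotype accounted for 38.1% of the second component and 52.1% of the third, which held 18.0% and 13.0% of the variance. Same-numbered wild-type libraries deviated together across times, with correlations of 0.42 to 0.59 between times, while those of aba1-6 gave -0.07 to 0.33. The drought comparison treats them as independent, and so does the fit of both watering regimes below. The standard errors and p-values of both may therefore be too small. The aerial tissue was checked against other cell types: all 4 seed storage markers and 3 of 6 root markers stayed below 1 CPM in every library, as did 6 of 9 floral and meristem markers. The summed root markers, nearly all PYK10, ranged from 604 to 1020 CPM in aba1-6 and from 555 to 869 CPM in wild type. The summed floral and meristem markers ranged from 5.66 to 9.64 CPM and from 3.87 to 8.09 CPM. Of these markers, the root nitrate transporter NRT2.1 (log2 fold change 1.51) and the floral gene PI (1.83) were higher in aba1-6 (edgeR adjusted p = 0.0293 and 0.000597). NRT2.1 was not called in 7 of the 16 fits that left out 1 library, and the markers' part in the results was not tested.

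Under drought, aba1-6 differed from wild type at 3175 of the 18652 genes tested (17.0%): 1512 were higher in the mutant (8.11%) and 1663 lower (8.92%). Counts of called genes by list below are to be read beside these shares. The lists and their members were chosen with earlier results of these data known. A count above these shares is therefore a description and not a test of a list. With library totals as the only scaling the calls tilted upwards, and 61.0% of them were higher against 47.6% with TMM scaling. The difference exceeded 2-fold for 332 of the genes called higher and for 322 of those called lower. Of the 3175 called genes, 2889 lay on the same side at all 4 times, and for 1262 the libraries of the genotypes did not overlap at any time. Over all 8 against 8 libraries, whatever the time, 97 genes lay wholly higher and 87 wholly lower in aba1-6. The number of calls rests partly on the independence of the wild-type libraries: a limma-voom fit with a correlation of 0.163 between same-numbered libraries of a genotype called 1909 genes, and sums over the day, 2 against 2, called 1187, of which 1135 were among the 3175.

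The difference with the highest fold among genes reaching 5 CPM was at AT3G01345, which the annotation lists as an uncharacterized protein (chromosome 3, 129138 to 130749, TAIR10.1). It stood at 210.1, 228.8 and 308.6 CPM in aba1-6 and at 0, 0.0884 and 0.866 CPM in wild type (log2 fold change 9.94 ± 0.22, edgeR adjusted p = 7.34e-18). The same contrast appeared with normal watering, at 205.1 to 316.9 CPM in aba1-6 and 0 to 1.05 CPM in wild type. CRK30, a cysteine-rich receptor-like kinase, followed with 3.38, 11.3 and 21.7 CPM against 0, 0 and 0.526 CPM (6.69 ± 0.45, edgeR adjusted p = 3.83e-09). The genotypes did not overlap in any library at either gene. The other genes of this set that were higher included AZI1, which encodes a lipid-transfer-like protein of systemic immunity (3.16), the lectin gene AT3G16530 (3.16), the homeodomain-like gene MEE3 (3.09) and AT3G16670, a Pollen Ole e 1 family gene (3.33).

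At the other end stood MBP1, a myrosinase-binding protein of the glucosinolate defence system (chromosome 1, 19350314 to 19352791). Its level was 5.96, 26.7 and 47.8 CPM in aba1-6 and 168.1, 776.1 and 1090 CPM in wild type (log2 fold change -4.81 ± 0.14, edgeR adjusted p = 1.52e-15). The highest mutant library thus stayed below the lowest wild-type library. The vegetative storage proteins VSP2 (-4.57) and VSP1 (-3.69), the jacalin-related lectin JAL23 (-4.37), the cellulose synthase-like CSLA01 (-3.58) and the nudix hydrolase NUDT24 (-3.51) were also among the 12 lowest. VSP1 and VSP2 are close copies that can share reads, so the value of each is uncertain. AT4G25670 (-4.67) was called as well (edgeR adjusted p = 0.0117) but not with the correlation nor with the sums over the day, and its libraries overlapped at 2 of the 4 times.

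The mutated gene was measured first among the synthesis genes. ABA1 (chromosome 5, 26753469 to 26757402) stood at 84.6, 104.9 and 669.3 CPM in aba1-6 and at 76.8, 141.1 and 1007 CPM in wild type. Its log2 fold change of -0.29 ± 0.12 was not called (edgeR adjusted p = 0.115), though it was with all 48 libraries in 1 fit and with the sums over the day. A transcript present in the mutant does not check the genotype labels. Of 281 tested genes within 1 Mb on either side of ABA1, 49 were called, against 17.0% of all genes.

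Genes that make active ABA differed in direction. BGLU18, a glucosidase that releases ABA from its glucose ester, was lower in aba1-6: 93.7, 337 and 504.7 CPM against 437.4, 1885 and 3105 CPM (log2 fold change -2.45 ± 0.10, edgeR adjusted p = 2.13e-13). Its level was lowest at ZT1 in both genotypes, and the genotypes did not overlap at any time. NCED5, a dioxygenase of the cleavage step, was higher in aba1-6: 1.12, 3.09 and 4.12 CPM against 0, 0.44 and 0.775 CPM (2.88 ± 0.42, edgeR adjusted p = 4.35e-05). ABA2, the short-chain dehydrogenase that follows, was higher by a log2 fold change of 0.49 (edgeR adjusted p = 0.00884). It was not called with the sums over the day (edgeR adjusted p = 0.0828). NCED3, the drought-induced member of the same family as NCED5, was called higher at 13.8, 24.4 and 44.8 CPM against 8.52, 12.8 and 24.7 CPM (0.92 ± 0.26, edgeR adjusted p = 0.027). NCED3 was not called in 5 of the 16 fits that left out 1 library (edgeR adjusted p of up to 0.0728). Nor was it called with the correlation, with a replicate block or without the 2 libraries of lowest total. At ZT1 alone its log2 fold change was -0.18. ABA3, AAO3 and ABA4 lay between -0.07 and 0.01 and were not called, and NCED2, NCED6 and NCED9 were below the filter on low counts. Of 14 tested genes of carotenoid and xanthophyll metabolism and function, 0 were called, with log2 fold changes from -0.19 to 0.28.

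Of the 4 ABA 8′-hydroxylase genes, 3 were lower in the mutant. CYP707A2 stood at 0, 0.605 and 1.02 CPM in aba1-6 and at 4.31, 6.65 and 14.8 CPM in wild type (log2 fold change -3.61 ± 0.29, edgeR adjusted p = 2.21e-08). CYP707A4 (-3.07 ± 0.28) and CYP707A1 (-1.88 ± 0.19) were lower as well, with no overlap between genotypes at any time for either (edgeR adjusted p = 8.55e-08 and 3.92e-07). CYP707A3 was not called (-0.35, edgeR adjusted p = 0.386). The ABA importer NPF4.6 was higher, at 34.2, 45.3 and 61.7 CPM against 24.3, 28.8 and 43.5 CPM (0.60 ± 0.08, edgeR adjusted p = 9.59e-06). The exporter ABCG25 was not called. Of the 9 tested genes of breakdown, conjugation and transport, 1 was thus higher and 3 were lower.

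The receptors were higher in aba1-6. Of 14 PYR/PYL genes, 9 passed the filter on low counts, 6 of these were called higher and 0 lower, and their median log2 fold change was 0.62 against 0.00 over all genes tested. PYL4 stood at 18.6, 24.5 and 48.8 CPM in aba1-6 and at 3.32, 5.98 and 11.5 CPM in wild type (2.15 ± 0.14, edgeR adjusted p = 8.57e-10). The lowest mutant library lay above the highest wild-type library. PYL8 showed the same order, at 42.9, 63.3 and 70.6 CPM against 23.5, 27.6 and 37.1 CPM (1.11 ± 0.09, edgeR adjusted p = 1.72e-08). PYL5 was higher by 2.18 and PYR1 by 0.62 on the log2 scale, while PYL6 was nearly silent in wild type (0, 0 and 0.211 CPM) and reached 0, 0.563 and 5.53 CPM in aba1-6. PYL7 was called at a log2 fold change of 0.30, and PYL1, PYL2 and PYL9 were not called (0.22 to 0.29).

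The phosphatases that the receptors inhibit were lower. Of 8 tested clade A PP2C genes 7 were called lower and 0 higher, with a median log2 fold change of -0.97. HAI1 stood at 0.426, 3.93 and 20.6 CPM in aba1-6 and at 23.3, 35.3 and 116.5 CPM in wild type (-3.26 ± 0.47, edgeR adjusted p = 0.000567). HAI2 stood at 0.91, 4.09 and 8.18 CPM against 16.9, 30.4 and 56.7 CPM (-3.05 ± 0.24, edgeR adjusted p = 2.95e-07). At both genes every mutant library lay below every wild-type library. PP2CA behaved alike, at 41.1, 49.6 and 90.9 CPM against 101.5, 186.7 and 320.8 CPM (-1.77 ± 0.17, edgeR adjusted p = 2.42e-06). ABI2 (-1.01), HAB1 (-0.87), ABI1 (-0.62) and HAB2 (-0.37) were lower by less, and HAI3, at no more than 1.55 CPM, was not called. The number called lower was 7 whichever library was left out and 6 with the sums over the day.

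Among kinases and transcription factors downstream the picture was mixed. Of 14 tested genes 5 were called lower and 2 higher. The ABI5-binding proteins AFP1 and AFP3, which restrain ABA responses, were lowest: AFP1 stood at 1.13, 4.67 and 11.96 CPM against 17.5, 37.0 and 76.0 CPM (log2 fold change -2.74 ± 0.37, edgeR adjusted p = 0.000295). AFP3 stood at 6.81, 13.9 and 29.8 CPM against 34.6, 56.7 and 100.7 CPM (-1.98 ± 0.19, edgeR adjusted p = 2.5e-06). Of the ABF factors, ABF3 (-1.14), ABF2 (-0.61) and ABF4 (-0.30) were lower and ABF1 was not called (-0.03). The kinases SNRK2.3 (0.43) and SNRK2.2 (0.24) were higher, while OST1, the main ABA-activated kinase of guard cells, had -0.03 and was not called. SNRK2.2 was not called in 9 of the 16 fits that left out 1 library, with an edgeR adjusted p of up to 0.0846.

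**Figure D1:**
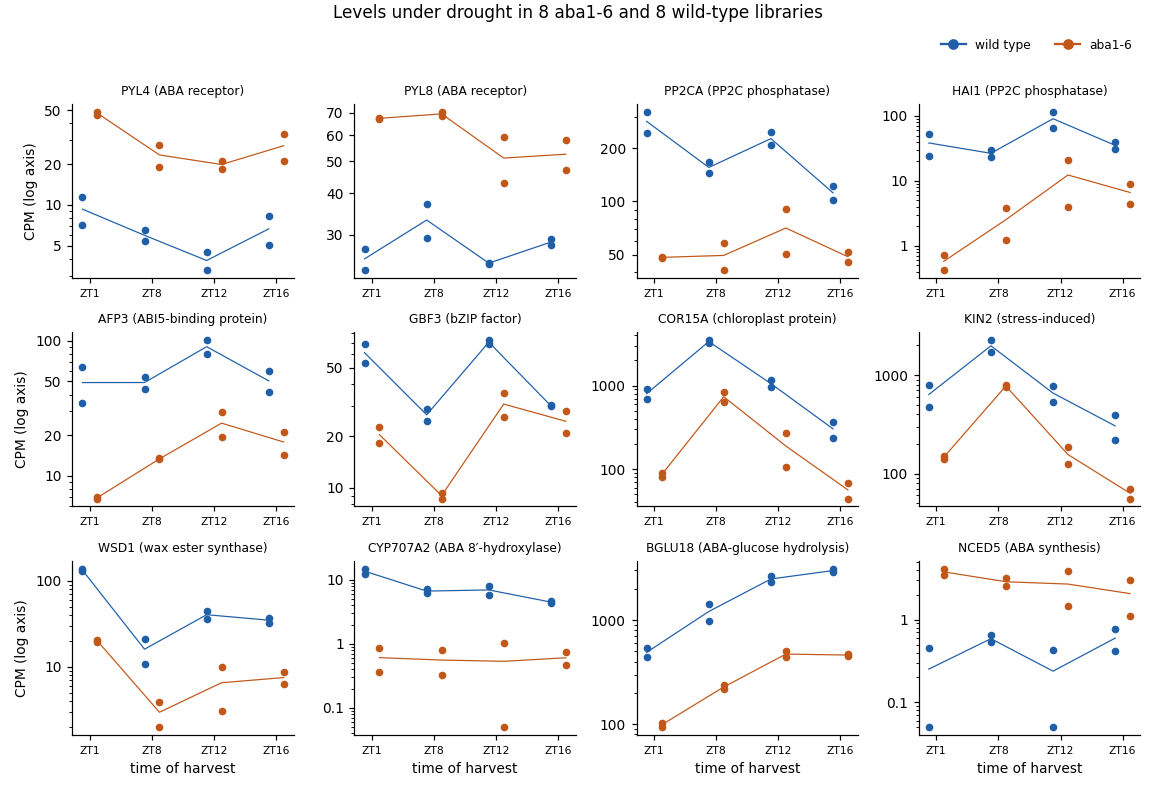
Levels of 12 genes in each of the 16 drought libraries (CPM, log axis) by time of harvest, with lines through the means of the 2 libraries of a group; values under 0.05 CPM are drawn at 0.05. PYL4, PYL8 and NCED5 lie higher in aba1-6 at all 4 times, and the other 9 genes lie lower.

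The bases next to the start of these genes were read from the RefSeq TAIR10.1 annotation. Of the 18652 genes tested, 18402 had a window of 250 bases before to 50 bases from the annotated start. The ABA-responsive element core ACGTG, searched on both strands so that a palindromic CACGTG counts once on each, occurred in 27.4% of all these windows. It occurred in 665 of 1640 windows of genes lower in aba1-6 (40.5%), in 161 of 317 of those lower by more than 2-fold (50.8%), in 355 of 1481 of those higher and in 26.3% of those not called. At least 2 occurrences were found in 99 windows of genes lower by more than 2-fold (31.2%) and in 2216 of all 18402. The dehydration-responsive element core CCGAC was found in 16.4% of all windows, 19.6% of those of genes lower by more than 2-fold and 12.4% of those higher. The GC content of the sets ranged from 30.6% to 32.2%. A match is a description of these letters and not a site of binding. By list, 11 of 16 windows of the RD, COR and KIN genes, 5 of 8 of the PP2C genes and 3 of 9 of the receptor genes held ACGTG. So did 17 of 19 windows of the clock genes and 7 of 9 of the CBF, DREB2 and early dehydration genes. Of all 19 and 9 tested genes of these lists, with or without the core, 14 and 7 were not called.

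The upstream stretch of 250 bases is printed for 4 genes lower in aba1-6 with several cores and for 1 receptor gene higher in aba1-6 with none, chosen after the counts of cores were seen. All are 5′ to 3′ on the gene's own strand in TAIR10.1, with ACGTG and its reverse complement CACGT in capitals. PP2CA is at chr3:3585851-3586100 (minus strand) and holds 5 cores, HAI2 at chr1:2282829-2283078 (minus strand) holds 4, AFP3 at chr3:11384146-11384395 (minus strand) holds 8 as 4 palindromes, COR15A at chr2:17712331-17712580 (minus strand) holds 2 as 1 palindrome, and PYL4 at chr2:16049668-16049917 (plus strand) holds 0.
PP2CA: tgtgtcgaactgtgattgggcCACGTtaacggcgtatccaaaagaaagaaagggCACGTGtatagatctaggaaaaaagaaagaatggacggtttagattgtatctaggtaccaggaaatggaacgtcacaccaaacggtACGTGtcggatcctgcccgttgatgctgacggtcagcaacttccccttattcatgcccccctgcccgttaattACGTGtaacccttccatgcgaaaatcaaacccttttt
HAI2: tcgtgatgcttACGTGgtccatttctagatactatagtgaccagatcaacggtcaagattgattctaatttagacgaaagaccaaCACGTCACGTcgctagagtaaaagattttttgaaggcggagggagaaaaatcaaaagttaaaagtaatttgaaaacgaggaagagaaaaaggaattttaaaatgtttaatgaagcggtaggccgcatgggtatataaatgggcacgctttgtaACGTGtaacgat
AFP3: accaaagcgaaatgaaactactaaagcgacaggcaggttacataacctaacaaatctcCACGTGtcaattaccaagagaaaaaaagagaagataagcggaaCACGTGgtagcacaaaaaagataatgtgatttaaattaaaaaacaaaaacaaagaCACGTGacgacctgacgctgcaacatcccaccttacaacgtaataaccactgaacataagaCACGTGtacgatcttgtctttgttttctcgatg
COR15A: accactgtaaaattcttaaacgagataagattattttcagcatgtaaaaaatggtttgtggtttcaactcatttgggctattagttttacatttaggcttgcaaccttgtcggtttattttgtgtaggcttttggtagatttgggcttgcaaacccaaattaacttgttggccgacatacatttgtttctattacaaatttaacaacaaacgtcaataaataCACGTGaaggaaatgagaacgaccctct
PYL4: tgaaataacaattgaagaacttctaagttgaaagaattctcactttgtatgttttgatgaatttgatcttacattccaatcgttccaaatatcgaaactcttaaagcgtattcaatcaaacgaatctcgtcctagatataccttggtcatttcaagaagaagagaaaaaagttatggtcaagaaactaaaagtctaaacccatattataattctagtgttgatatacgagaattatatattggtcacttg

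**Figure D2:**
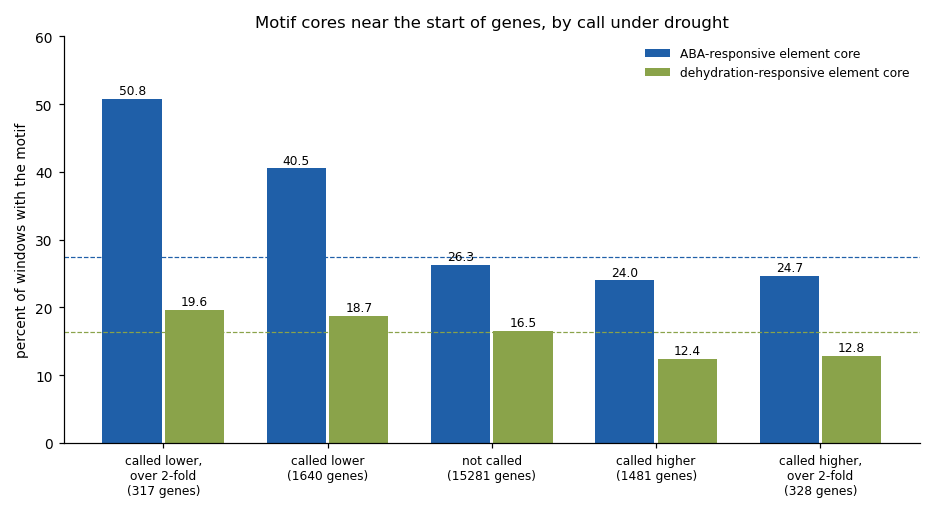
Percent of windows (250 bases before to 50 from the start) with the ABA-responsive element core ACGTG or the dehydration-responsive element core CCGAC, by call under drought; dashed lines give the share in all 18402 windows. The ACGTG share is 50.8% in genes lower by more than 2-fold and 24.7% in genes higher by more than 2-fold, against 27.4% in all.

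Genes known as induced by drought, cold and ABA were lower in aba1-6. Of the 16 RD, COR and KIN genes, all of which were tested, 13 were called lower and 0 higher, with a median log2 fold change of -1.51. For 11 of the 13 the genotypes did not overlap at any time, beside 1262 of all 3175 called genes. COR15A, which encodes a chloroplast protein that protects membranes, stood at 44.5, 98.2 and 837.1 CPM in aba1-6 and at 235, 935.8 and 3482 CPM in wild type (-2.57 ± 0.20, edgeR adjusted p = 9.66e-08). Its level peaked at ZT8 in both genotypes, so the ranges over the day overlapped although those at each time did not. KIN2 showed the same daily course, at 55.9, 146.6 and 787.6 CPM against 217.7, 655.9 and 2253 CPM (-1.94 ± 0.16, edgeR adjusted p = 1.17e-07). KIN1 (-3.10), a close copy of KIN2 with which it can share reads, the lipid-transfer gene LTP4 (-2.70), RD20, a caleosin (-1.71), and RD29A (-1.62) were lower too. LTI65, the RD29A neighbour also called RD29B, had -1.77 ± 0.76 and was not called (edgeR adjusted p = 0.143), and TSPO and ALDH3I1 were not called either.

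Of 8 tested dehydrins and other late embryogenesis abundant (LEA) proteins, 4 were called lower: ERD10 (-1.03), ERD14 (-0.83), LEA14 (-0.76) and COR47 (-0.64). LEA14 was not called with the correlation (limma-voom adjusted p = 0.0603), nor COR47 with the sums over the day (edgeR adjusted p = 0.242). ERD10, an acidic dehydrin, stood at 160.2, 199.5 and 467.3 CPM against 217.3, 460 and 832.3 CPM (edgeR adjusted p = 3.19e-06). LEA7 had the lowest fitted value of the list (-1.93 ± 1.02) but its libraries varied too widely for a call (edgeR adjusted p = 0.235). Among 11 tested stress-induced transcription factors 6 were lower. MYB44, a MYB factor of ABA and stress responses, stood at 14.2, 18.9 and 27.6 CPM against 35.4, 43.9 and 65.1 CPM (-1.26 ± 0.09, edgeR adjusted p = 3.02e-09), with no mutant library reaching the lowest of wild type. RD26, a NAC factor (-1.26), GBF3, a bZIP factor that binds G-boxes (-1.18), and HB-12, a homeodomain-leucine zipper factor (-1.03), were lower as well. Of 9 tested CBF, DREB2 and early dehydration genes, CBF3 (-1.49) and RAP2.1 (-1.47) were lower and DREB2A, the main ABA-independent drought factor, was not called (-0.17, edgeR adjusted p = 0.667). P5CS1, the rate-limiting enzyme of proline synthesis, had -0.75 ± 0.27 and was not called (edgeR adjusted p = 0.0771), and the only called proline gene, P5CDH (-0.26), was not called in 10 of the 16 fits that left out 1 library (edgeR adjusted p of up to 0.0931). Galactinol synthases differed in direction: GOLS1 (-0.83) and GOLS2 (-0.78) were lower and GOLS3 (0.81) higher, with GOLS3 not called with the sums over the day.

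**Figure D3:**
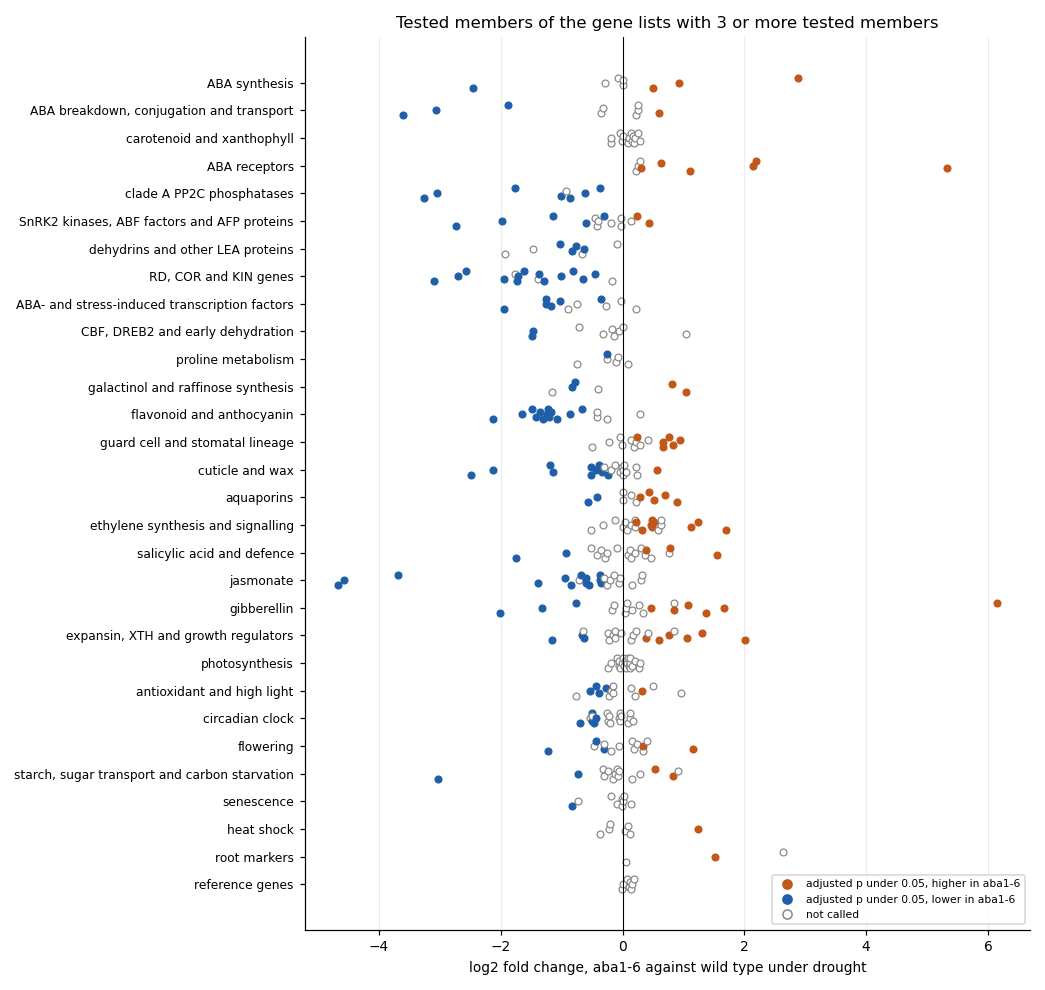
Log2 fold changes of aba1-6 against wild type under drought for tested members of 30 gene lists; filled points passed the adjusted p of 0.05. All called PP2C, RD/COR/KIN, flavonoid and jasmonate members lie below 0, all called receptor, ethylene and guard cell members lie above 0, and 0 photosynthesis, carotenoid or reference genes were called.

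Flavonoid and anthocyanin genes were lower in aba1-6 under drought. Of 17 tested, 13 were called lower and 0 higher, and the median log2 fold change was -1.21. For 11 of the 13 the genotypes did not overlap at any time, against 1262 of all 3175 called genes. The bHLH regulator TT8 stood at 1.34, 2.71 and 16.2 CPM against 3.71, 14.0 and 43.8 CPM (-1.65 ± 0.25, edgeR adjusted p = 0.000198), and the MYB regulator PAP2 had -2.13 ± 0.42 (edgeR adjusted p = 0.00105). Among enzymes, F3H, the flavanone 3-hydroxylase, stood at 2.47, 79.8 and 129.6 CPM against 13.97, 191 and 317.9 CPM (-1.43 ± 0.12, edgeR adjusted p = 8.79e-08). The enzyme genes DFR (-1.30) and LDOX (-1.21) and the vacuolar transport gene GSTF12 (-1.49) had similar values, and TT4, chalcone synthase, had -0.86. The flavonol branch genes FLS1, MYB11 and MYB111 were not called.

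Of 22 tested cuticle and wax genes, 10 were lower and 1, MYB30, was higher. WSD1, a wax ester synthase, stood at 1.99, 7.48 and 20.6 CPM in aba1-6 and at 10.8, 36.3 and 137.1 CPM in wild type (log2 fold change -2.48 ± 0.20, edgeR adjusted p = 2.71e-07). MAH1, a midchain alkane hydroxylase gene at no more than 2.38 CPM, had -2.13 ± 0.66 (edgeR adjusted p = 0.0283) and was not called in 5 of the 16 fits that left out 1 library, with the replicate block or with the sums over the day. CER1, which makes alkanes of the wax layer (-1.20), and the elongase gene KCS2 (-1.14) followed, and the other 6 genes called lower lay between -0.52 and -0.24. The fit with the correlation called 7 lower and 0 higher, without MYB30 (limma-voom adjusted p = 0.0594), and the sums over the day called 5 lower.

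Of 23 tested jasmonate genes, 13 were called lower, 0 higher and 10 not at all, with a median log2 fold change of -0.37. VSP2 stood at 1.82, 15.7 and 32.9 CPM in aba1-6 and at 64.2, 363.8 and 717.4 CPM in wild type, so the genotypes did not overlap in any library (-4.57 ± 0.31, edgeR adjusted p = 5.12e-07). THI2.1, a thionin, had 0, 0 and 0.231 CPM against 0, 1.05 and 3.87 CPM (-4.68 ± 0.67, edgeR adjusted p = 3.18e-05). Synthesis genes lay lower by less: AOS, allene oxide synthase, stood at 192.2, 257.6 and 329.5 CPM against 347.1, 453 and 597.2 CPM (-0.85 ± 0.08, edgeR adjusted p = 2.12e-07), and AOC2 (-0.95), LOX2 (-0.60) and OPR3 (-0.37) were lower too. The factor MYC2 had -0.60 and the repressor genes JAZ6, JAZ9 and JAZ12 between -0.55 and -0.36, while JAZ1, JAZ2 and JAR1 were not called.

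Of 21 tested ethylene genes, 9 were called higher, 0 lower and 12 not at all, with a median log2 fold change of 0.32. The sums over the day called 4 higher. PR4, an ethylene-induced chitin-binding protein, stood at 3.74, 7.46 and 10.8 CPM against 0, 3.03 and 4.65 CPM (1.24 ± 0.24, edgeR adjusted p = 0.000714). ACS5, an isoenzyme of the rate-limiting step of ethylene synthesis, had 0.993, 1.72 and 2.31 CPM against 0, 0.479 and 1.36 CPM (1.69 ± 0.42, edgeR adjusted p = 0.00697). The receptor gene ERS1 (0.48), the factor gene EIL1 (0.49) and the kinase gene CTR1 (0.32) were higher by less, and EIN2 and ETR1 were not called (0.13 and 0.01). Of 19 tested salicylic acid and defence genes, 3 were higher and 2 lower, beside 8.11% and 8.92% over all genes. With the correlation 1 was higher. The factor gene CBP60G was among the 3 called higher, at 13.6, 19.1 and 24.6 CPM against 4.47, 5.48 and 12.4 CPM (1.55 ± 0.15, edgeR adjusted p = 2.95e-07), with every mutant library above every wild-type library.

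Gibberellin and growth genes held members in both directions. Of 18 tested gibberellin genes 6 were higher and 3 lower. GASA6, a gibberellin-induced gene, stood at 65.9, 104.9 and 275.2 CPM against 23.7, 43.1 and 62.1 CPM (log2 fold change 1.66 ± 0.14, edgeR adjusted p = 9.16e-08). The synthesis genes GA3OX1 (1.38) and GA20OX1 (1.08) were higher. GA20OX3 was at 0 in all 8 wild-type libraries and at 0.816 CPM over the aba1-6 group, which is at least 17-fold higher against a floor of 3 counts over the wild-type group. GA2OX1, which inactivates gibberellin (-2.01), and the DELLA repressor genes RGL3 (-1.33) and RGL2 (-0.76) were lower, while GA2OX2 was higher (0.85). The list's median of 0.21 was the same with GA20OX3 at its bound, as it had to be because that gene stays above the median. Of 21 expansin, XTH and growth genes 6 were higher and 3 lower. EXPA8, a wall-loosening expansin, stood at 39.3, 71.4 and 149.5 CPM in aba1-6 and at 5.04, 17.9 and 34.8 CPM in wild type, with no overlap (2.01 ± 0.16, edgeR adjusted p = 1.61e-07). EXPA1 was higher as well (edgeR adjusted p = 3.18e-09), and XTH17 (-1.16), XTH24 (-0.67) and the light-signalling gene HFR1 (-0.63) were lower.

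Of 15 tested guard cell and stomatal lineage genes, 6 were called higher and 0 lower. The stomatal lineage factor SPCH stood at 6.07, 6.51 and 7.66 CPM in aba1-6 and at 1.44, 3.85 and 4.95 CPM in wild type (log2 fold change 0.94 ± 0.17, edgeR adjusted p = 0.000507), and the groups did not overlap. The inward potassium channel genes KAT2 (0.82) and KAT1 (0.66) and the guard cell factor MYB60 (0.76) were higher too. The anion channel gene SLAC1 (-0.01), the outward channel gene GORK (-0.22) and TGG1 (0.14), which makes up most of the summed markers, were not called. The sum of the markers ranged from 2720 to 3610 CPM in aba1-6 and from 1290 to 4030 CPM in wild type. Aquaporins held 5 higher and 2 lower of 11 tested, with PIP2B at 75.2, 97.3 and 244.5 CPM against 31.2, 46.3 and 216 CPM (0.89 ± 0.17, edgeR adjusted p = 0.00121). The sums over the day called 0 of the aquaporins higher, and leaving out 1 library called 2 to 5.

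Of 22 photosynthesis genes 0 were called, with log2 fold changes from -0.24 to 0.29, and of 8 reference genes 0 were called, from -0.01 to 0.19. Of 19 clock genes, 5 were called lower and 0 higher, beside 8.92% called lower over all genes, among them LHY (-0.71), LNK1 (-0.51) and RVE8 (-0.50). The fit with the correlation called 3 lower, without LHY (limma-voom adjusted p = 0.176) and RVE8 (0.0503). The sums over the day called 2, without LHY (edgeR adjusted p = 0.0521), LNK1 (0.0564) and RVE2 (0.169). RVE2 (-0.47), also among the 5, was not called in 11 of the 16 fits that left out 1 library. TOC1, ELF3 and PRR5 were not called. Of 14 tested flowering genes 2 were higher and 3 lower, beside 8.11% and 8.92% over all genes. The floral integrator SOC1 stood at 3.36, 6.6 and 13.9 CPM against 10.6, 15.9 and 24.7 CPM (-1.22 ± 0.15, edgeR adjusted p = 6.82e-06), and the floral repressor TEM2 was higher (1.16 ± 0.19, edgeR adjusted p = 0.000173). FT, the mobile flowering signal, was not called (0.18 ± 0.44, edgeR adjusted p = 0.831) at levels of up to 4.28 and 5.67 CPM. Of 15 tested starch and sugar genes 2 were higher and 2 lower, beside the same shares over all genes. The sucrose transporter SUC1 stood at 52.9, 70.9 and 123.9 CPM against 30.4, 45.2 and 70.6 CPM (0.83 ± 0.08, edgeR adjusted p = 3.32e-07), and APL3, a subunit of the starch enzyme ADP-glucose pyrophosphorylase (-0.73), and SWEET15 (-3.03) were lower. Antioxidant genes held 4 lower and 1 higher of 14, beside the same shares over all genes. None of those called lay beyond -0.53 or 0.32, and the sums over the day called 1 lower and 0 higher. Of 9 tested senescence genes SGR2 alone was called (-0.83), but not in 9 of the 16 fits that left out 1 library (edgeR adjusted p of up to 0.0884). Of 7 tested heat shock genes HSFA3 alone was called (1.24).

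The genotype effect itself differed between times of harvest for 25 genes (0.134%) in a test of the interaction with 3 degrees of freedom, and 1370 genes had an unadjusted p under 0.05. GSTF6, a glutathione S-transferase, was higher in aba1-6 at ZT1, with means of 25.6 against 10.2 CPM, and lower from ZT8 on, with 188.2 against 330.3 CPM at ZT16 (edgeR adjusted p of the interaction = 0.000375). EXPA11 did the reverse, with 29.0 against 52.8 CPM at ZT1 and 80.3 against 39.2 CPM at ZT8 (edgeR adjusted p = 0.00142). EXL5, an EXORDIUM-like gene, was lower in aba1-6 at ZT8 (19.7 against 30.1 CPM) and ZT16 (13.4 against 40.6 CPM) and higher at ZT12 (12.6 against 9.16 CPM; edgeR adjusted p = 0.00683). The lectin gene AT5G03350 was lower at all times, by most at ZT8, with 20.4 against 216.3 CPM (edgeR adjusted p = 0.0141). The count of 25 depended on single libraries: it was 3 without the aba1-6 ZT8 replicate 1 library and 66 without the wild-type ZT16 replicate 1 library. DESeq2 called 233.

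**Figure D4:**
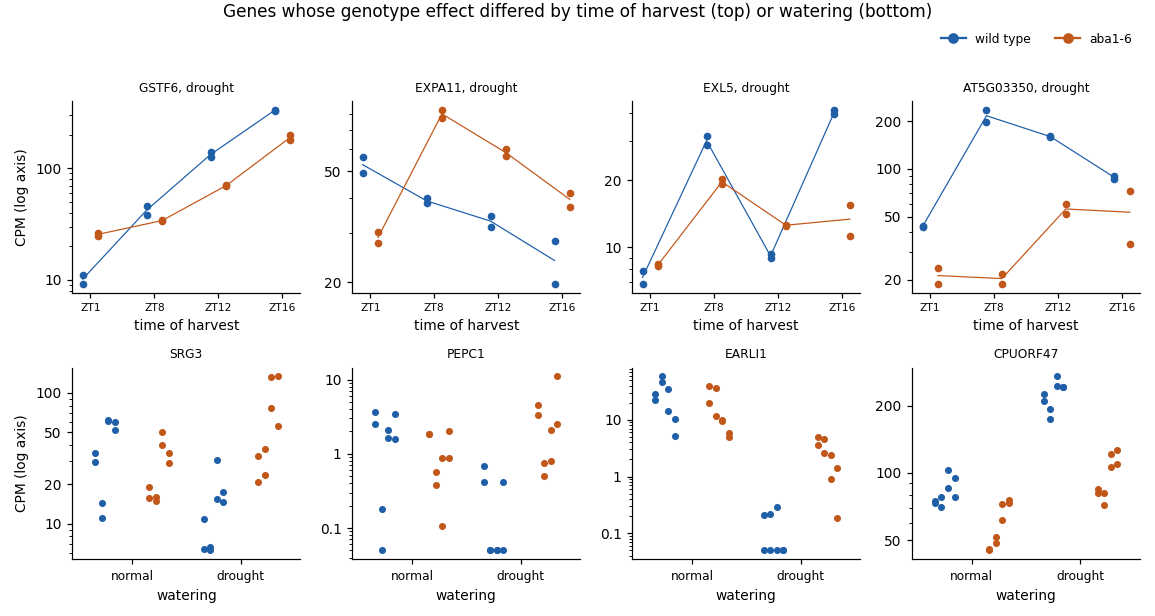
Levels by library (CPM, log axis; values under 0.05 CPM are drawn at 0.05). Top, the 4 genes of lowest p in the test of genotype by time, in the drought libraries, with lines through the means of 2. Bottom, 4 genes whose genotype difference differed between watering regimes, with the 4 times side by side within each genotype and regime: SRG3, PEPC1 and EARLI1 lie higher in aba1-6 than in wild type under drought but not with normal watering.

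With normal watering the same genotypes also differed. Of 19014 genes tested in a fit of 32 libraries, 1095 were higher in aba1-6 (5.76%) and 1422 lower (7.48%). With library totals as the only scaling, 2008 were higher and 911 lower, so the larger direction depended on the scaling. The fit of 32 libraries also treats same-numbered libraries as independent. Neither the correlation nor the sums over the day were run for it, so its p-values may be too small. Of the 3175 genes called under drought 1316 were called with normal watering in the same direction, which is 41.4% of the drought calls and 52.3% of the others, and 7 in the opposite one. The difference between the genotype effects was itself called for 125 genes as more positive under drought (0.657%) and for 55 as more negative (0.289%), with 2448 at an unadjusted p under 0.05. Of the 3175 genes called under drought, 137 had a called difference between regimes, so most of those called under drought and not with normal watering were not shown to differ. The count of 180 such genes in all ranged from 88 without the aba1-6 drought ZT12 replicate 2 library to 237 without the wild-type drought ZT8 replicate 1 library.

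For HAI1, PP2CA and PYL4 the genotype effect had the same sign in both regimes, and its difference between them was not called. HAI1 was lower in aba1-6 by -2.74 ± 0.58 on the log2 scale with normal watering, at 0.25 to 1.45 CPM against 2.24 to 13.4 CPM. Under drought both genotypes stood higher, at 0.426 to 20.6 CPM and 23.3 to 116.5 CPM, and the difference of the genotype effects was not called (edgeR adjusted p = 0.833). PP2CA had 23.1 to 34.2 CPM against 43.1 to 88.2 CPM with normal watering, and PYL4 30.0 to 81.0 CPM against 12.2 to 27.9 CPM. Their log2 fold changes were -1.24 and 1.29 with normal watering against -1.77 and 2.15 under drought (edgeR adjusted p of the difference = 0.237 and 0.0776). Lists differed more in their counts: 13 flavonoid genes were lower under drought and 5 with normal watering, though the difference was called for UGT75C1 alone (-0.94, edgeR adjusted p = 0.0271). Of the dehydrins, ERD14 was lower by -0.83 under drought and had -0.16 with normal watering, and the difference of -0.67 ± 0.15 was called (edgeR adjusted p = 0.0165), as it was for ERD10 (-0.60). HIRD11 had -0.10 under drought and 0.45 with normal watering, also a called difference (-0.55).

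The 10 genes of lowest p in this test that reached 5 CPM had, in all but 1 case, a more positive genotype difference under drought. SRG3, a glycerophosphodiester phosphodiesterase gene, stood at 20.7, 46.6 and 134 CPM in aba1-6 and at 6.24, 12.7 and 30.4 CPM in wild type under drought, against 14.97 to 49.8 CPM and 11 to 61.6 CPM with normal watering. Its log2 fold change was 2.16 under drought and -0.49 with normal watering, a difference of 2.65 ± 0.30 (edgeR adjusted p = 8.9e-05). PEPC1, a phosphatase gene annotated as AT1G17710, had 0.505, 2.3 and 11.1 CPM against 0, 0 and 0.681 CPM under drought, a difference between regimes of 4.57 ± 0.69 (edgeR adjusted p = 0.000481). AT5G03545, which RefSeq describes as expressed in response to phosphate starvation, stood at 15.8, 25.6 and 107 CPM against 0.973, 4.27 and 10.07 CPM, a difference of 2.77 ± 0.39 (edgeR adjusted p = 0.000711). The neighbours AZI1 and EARLI1 on chromosome 4, both of the lipid-transfer protein type, differed by 2.22 ± 0.33 and 5.33 ± 0.81 (edgeR adjusted p = 0.00059 and 0.00164). EARLI1 stood at 4.96 to 39.3 CPM in aba1-6 and 5.2 to 58.4 CPM in wild type with normal watering, and under drought at 0.187 to 5.01 CPM and 0 to 0.289 CPM. CPUORF47 was the only one of the 10 more negative under drought: 71.8, 95.5 and 127.1 CPM in aba1-6 and 174, 233.5 and 270.5 CPM in wild type, a log2 fold change of -1.21 against -0.49 with normal watering (edgeR adjusted p of the difference = 9.57e-05).

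**Figure D5:**
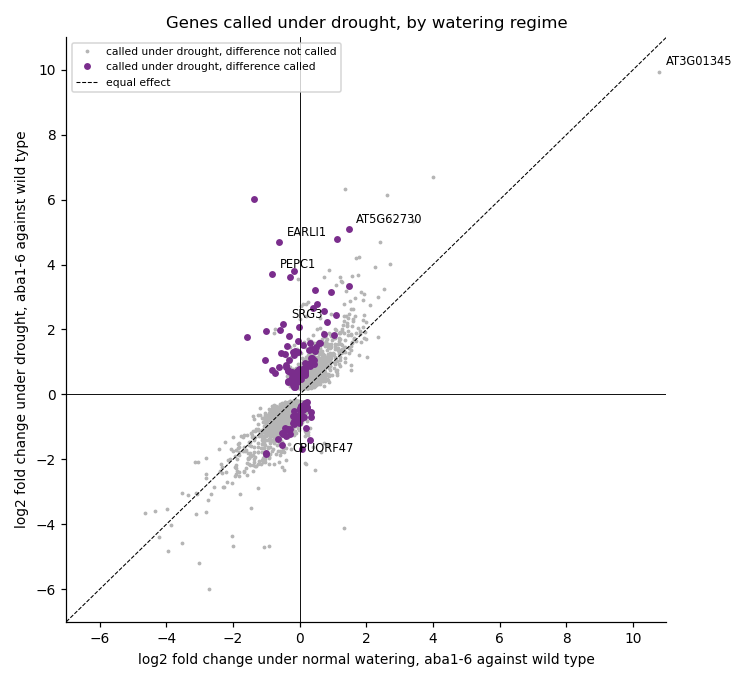
Log2 fold changes of aba1-6 against wild type under drought (vertical) and with normal watering (horizontal) for 3174 genes called under drought; the dashed line marks equal effects. Purple points, 137 genes, are those whose difference between regimes was called, and AT3G01345 lies near the dashed line at the upper right.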

How the data were processed

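RNA was measured by sequencing polyadenylated libraries, 48 in the series. The deposited table holds expected counts per gene, and the submitters' processing notes name Bowtie2, RSEM, edgeR and TAIR10, with no version or role. Whether counting used strand is not given in the sources used here, so overlapping antisense genes cannot be told apart, and near-identical genes (such as VSP2 with VSP1, KIN2 with KIN1, and RBCS and LHCB members) can share reads. The deposited expected counts, of which 98.6% were whole, were rounded. Names were matched to RefSeq (TAIR10.1), and 724 of 26988 did not match (2.3% of counts).

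Groups came from the sample titles; 1 gi-2 drought library, used only with all 48 libraries, carries a wild-type genotype label. The drought fit used edgeR 4.0.16 (R 4.3.3) with TMM scaling (factors 0.828 to 1.13), filterByExpr (a minimum count of 10, minimum total of 15), genotype plus time of harvest, the robust quasi-likelihood test and Benjamini-Hochberg adjustment at 0.05. The time term was a genotype by time test with 3 degrees of freedom. Normal watering and the difference between regimes came from 1 fit of 32 libraries. On simulated counts for the 18652 genes of the drought comparison, 38 of 50 genes changed 1.5-fold and 49 of 50 changed 2-fold were called. At 3-fold and 4-fold 46 and 50 of 50 were called, and 9 calls were false (4.69% of all calls). The simulated libraries were drawn independently, so these figures do not cover libraries that deviate together. Total counts of 2289812 to 26925706 set the precision of low genes.

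Named genes were ABA1, the 12 higher and 12 lower called genes of largest fold change (at least 5 CPM, same side at all 4 times), up to 4 called members in each direction of each of 32 lists (or the 2 of highest CPM where none was called), and the 10 of smallest p in each interaction test with at least 5 CPM. Others were named after their values were seen. Members and lists were chosen with earlier results of these data known. 20 of 474 listed genes have no row of their own in the table.

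Same-numbered libraries of the 2 genotypes under drought gave correlations of their deviations of -0.00, -0.03, 0.13 and -0.03 at the 4 times. The value at ZT12 alone lay above the threshold of 0.1 set for pairing. The labels do not say that a number marks a shared day or tray. The numbers were not taken to pair the genotypes, and a replicate block was fitted as an alternative. The alternatives were library totals as the only scaling, 2 other filters, a replicate block, DESeq2 1.42.0, all 48 libraries, group means, limma 3.58.1 (voom) with a correlation within genotype and replicate number, each time alone, and leaving out libraries. The sums over the day, 2 against 2, and all alternatives for normal watering were added after seeing the data.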

Additional observations from a re-analysis of the deposited data

Results flagged for a closer look

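Among 432 listed or named genes, the genotype difference differed between watering regimes for 22 in the test of the difference itself. As drought minus normal watering on the log2 scale, it was 5.33 for EARLI1, 4.57 for PEPC1, 3.98 for AT5G20790, 3.93 for AT1G23110, 3.63 for AT5G62730, 2.77 for AT5G03545, 2.65 for SRG3, 2.22 for AZI1 and 1.86 for AT3G16670. It was 1.25 for GA2OX2, 0.71 for ASE2, 0.68 for GER3, 0.64 for SUC1, 0.57 for KAT1 and 0.48 for RBCS1B. The more negative values were -0.94 for UGT75C1, -0.73 for CPUORF47, -0.72 for COR413IM1, -0.67 for ERD14, -0.60 for ERD10, -0.59 for RD22 and -0.55 for HIRD11.

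The genotype difference varied with time of harvest for 12 of the 432. The edgeR adjusted p of the interaction was 0.000375 for GSTF6, 0.00142 for EXPA11, 0.00683 for EXL5, 0.0141 for AT5G03350, 0.0228 for THE1, 0.0279 for ADS1, 0.0335 for ACD6 and 0.0344 for WRKY70. It was 0.0281 for each of DGR2, AT1G20070, AT1G22690 and LYK3. With 1 library left out, GSTF6, EXPA11 and EXL5 were called in all 16 fits, while AT5G03350 lost its call in 3, THE1 in 6, ADS1, AT1G20070, AT1G22690 and LYK3 in 8 each and DGR2 in 9, with an edgeR adjusted p of up to 0.202. GSTF6 was not called with all 48 libraries in 1 fit.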

How the results depend on the processing

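The 3175 calls under drought numbered 2564 to 3461 when 1 library was left out and stayed within 1.5 times under the other scalings, filters and fits, except for 1909 with limma-voom and a correlation, 1187 with sums over the day, and 1271, 555, 559 and 341 at ZT1, ZT8, ZT12 and ZT16 alone. The 25 calls by time became 205 with no filter, 233 with DESeq2 and 254 with all 48 libraries, and 3 to 66 with 1 library left out, where only leaving out the aba1-6 ZT12 replicate 2, wild-type ZT1 replicate 1 or wild-type ZT8 replicate 2 library kept the count within 1.5 times. The 180 calls for the difference between regimes became 396 with DESeq2, 522 with 48 libraries and 88 to 237 with 1 library left out. It was 88 to 116 without either of the aba1-6 drought ZT1, normal ZT8 or normal ZT16 libraries, aba1-6 drought ZT8 replicate 1, drought ZT12 replicate 2, drought ZT16 replicate 2 or normal ZT12 replicate 2, either wild-type normal ZT8 library, or wild-type drought ZT1 replicate 2, drought ZT8 replicate 2 or normal ZT16 replicate 1. The replicate block uses numbers that were not taken to pair the genotypes. With it the counts were 2936 under drought, 11 by time, 146 for the difference and 2366 with normal watering. The count with normal watering was 2517 without the block, and 1973 to 2685 with 1 library left out. Sign changes at single times are listed only for named genes called on average or at that time. Among these the sign differed from the average for NCED3 (-0.18), GAMMA-TIP (-0.025), WRKY38 (4.21), NIMIN-2 (0.262), SMZ (-0.181), GSTF6 (1.33), EXPA11 (-0.872) and LYK3 (0.778) at ZT1, SNZ (0.026) at ZT8, DELTA-TIP (0.164) and ACS4 (-0.013) at ZT12, and MYB30 (-0.015), THE1 (-0.700) and DGR2 (-0.067) at ZT16. The cause was not tested. Of 136 named called genes, 108 to 136 kept their call under the other scalings, filters and fits and the sums over the day, 122 to 132 with 1 library left out, and 44 to 80 at single times.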
